A study of Mus musculus with 3 samples.

Results

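Of the 14047 genes with a ratio on all 3 arrays, 71 encode subunits of oxidative phosphorylation (OXPHOS). They were taken by gene symbol from the array annotation, with the prefixes Nduf, Sdh, Uqcr, Cox and Atp5 standing for complexes I to V. Complex I gave 31 genes, complex II 4, complex III 8, complex IV 13 and complex V 15. The rule uses symbols and no ratios, and this group of genes was picked for description with earlier results of these arrays known. The pattern took 72 symbols, and the one left out was Atp5l, subunit g of ATP synthase, which had a value on array 3 alone, a log2 ratio of -2.90. Each of the 71 genes rested on 1 probe with values on all arrays. A second probe of Atp5md had no value on array 2 and was not used, and it read 0.20 on array 1 and 2.83 on array 3.

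The RNA came from normal CD1 mouse embryos, pooled over both sexes. On each of the 3 two-colour oligonucleotide arrays, metanephric mesenchyme microdissected at 10.5 days post coitum (dpc) was set against metanephroi of 11.5 dpc, both as amplified RNA. Arrays 1 and 2 had the dye order red/green and array 3 had green/red. The labels do not say which tissue is the numerator of the ratio, so a positive ratio means more RNA in one tissue and a negative ratio more in the other, without saying which. They also do not say whether the arrays came from separate dissections, so the spread between arrays may be technical. A metanephros at 11.5 dpc is a mixed tissue that holds the ureteric bud epithelium as well as mesenchyme, and in such bulk RNA fewer cells of a type and less RNA per cell cannot be told apart.

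OXPHOS takes place in the inner mitochondrial membrane. Complex I, fed by NADH, and complex II, fed by succinate, pass electrons to ubiquinone, complex III passes them on to cytochrome c, and complex IV passes them to oxygen. Complexes I, III and IV pump protons, and complex V, the ATP synthase, lets the protons return and makes ATP. A small set of subunits carries the redox centres or the catalytic sites, and many small accessory subunits surround them. Complex II is also an enzyme of the citric acid cycle. The subunits studied here are all encoded in the nucleus. In kidney development the early mesenchyme is known as a strongly glycolytic tissue, and the mature proximal tubule as one that depends on OXPHOS.

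Nuclear genes of OXPHOS are known to be controlled in part by the factors NRF1, GABPA and YY1, so the promoters of the members were searched for their short motifs, in windows of 250 bases before and 50 bases after the start of the gene (RefSeq, GRCm38.p6). A window was at hand for 59 of the 71 members. The 4 windows below belong to the members of smallest p on each side of 0 among those with 1 window, and they are shown so that genes with opposite ratios can be compared in their control regions. Capitals mark a motif on either strand. Ndufa4 (chr6:11907401-11907700, minus strand) and Atp5md (chr19:47090598-47090897, minus strand) were on the positive side, and Sdha (chr13:74350191-74350490, minus strand) and Uqcrc1 (chr9:108936398-108936697, plus strand) on the negative side.

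Ndufa4: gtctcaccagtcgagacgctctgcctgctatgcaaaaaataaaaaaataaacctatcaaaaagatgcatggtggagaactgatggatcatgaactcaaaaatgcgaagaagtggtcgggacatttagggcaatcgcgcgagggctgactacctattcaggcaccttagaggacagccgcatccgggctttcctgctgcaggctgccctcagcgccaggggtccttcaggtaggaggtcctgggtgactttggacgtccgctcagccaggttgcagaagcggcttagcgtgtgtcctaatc
Atp5md: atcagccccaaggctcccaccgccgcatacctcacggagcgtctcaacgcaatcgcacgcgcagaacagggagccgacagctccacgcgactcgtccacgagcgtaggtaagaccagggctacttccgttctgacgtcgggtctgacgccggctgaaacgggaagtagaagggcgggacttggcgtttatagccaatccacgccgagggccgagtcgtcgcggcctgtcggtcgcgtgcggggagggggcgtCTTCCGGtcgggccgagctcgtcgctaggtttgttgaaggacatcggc
Sdha: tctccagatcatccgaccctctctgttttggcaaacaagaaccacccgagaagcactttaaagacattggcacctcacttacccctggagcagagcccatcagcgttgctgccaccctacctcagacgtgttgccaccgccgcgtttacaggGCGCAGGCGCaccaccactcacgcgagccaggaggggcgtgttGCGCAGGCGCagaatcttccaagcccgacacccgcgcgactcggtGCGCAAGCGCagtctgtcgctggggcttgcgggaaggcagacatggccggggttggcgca
Uqcrc1: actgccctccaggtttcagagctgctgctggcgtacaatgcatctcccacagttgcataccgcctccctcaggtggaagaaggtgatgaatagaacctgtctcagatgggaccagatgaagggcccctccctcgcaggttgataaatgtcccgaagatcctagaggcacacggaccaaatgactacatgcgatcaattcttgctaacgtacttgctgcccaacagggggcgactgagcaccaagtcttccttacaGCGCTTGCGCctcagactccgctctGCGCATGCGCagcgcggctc

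The NRF1 motif was searched as GCGC, any base and TGCGC, the GABPA motif as CCGGAAG and the YY1 motif as AAGATGGC, each on both strands. The NRF1 motif stood 3 times in the Sdha window and 2 times in that of Uqcrc1. Atp5md held the GABPA motif 1 time, close to the start of the gene, and the Ndufa4 window held 0 of the 3 motifs. Over the 59 members with a window, 14 held the NRF1 motif (23.7%, against 8.91% of 10812 tested genes with a window), 14 held the GABPA motif (23.7% against 15.4%) and 10 held the YY1 motif (16.9% against 4.33%). The YY1 motif was found in 7 of 28 complex I genes and 3 of 13 complex V genes, and in 0 of the 18 genes of complexes II, III and IV. The GABPA motif was found in 2 of the 28 complex I genes, 7.14%, where 15.4% of tested genes held it. Complex V held the GABPA motif in 5 genes, and complexes II, III and IV in 7. For the NRF1 motif the counts were 5 in complex I, 5 in complex V and 4 in complexes II, III and IV. At least 1 of the motifs was held by 32 of the 59 members, 54.2%, against 25.3% of the tested genes. Among members positive on every array 13 of 25 held at least 1, or 52%, near the share of all members. Among those negative on every array 2 of 6 did, too few genes for a comparison. The windows of members and of all tested genes had median GC contents of 58.5% and 58.3%. These are matches of letters, and binding was not measured.

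As a group the subunit genes leaned to the positive side, by a small amount. Of the 71 members 55 had a positive mean log2 ratio, which is 77.5%, where 49.8% of all genes did. These shares depend on the sign of array 3, which the labels leave unsettled, and with that array turned 49 members were positive, 69.0%, against 54.7% of all genes. The median of the members' means was 0.19, and that of all genes was 0.00. The spread of single genes around this median was wide, from Uqcrb at 1.66 to Atp5g1 at -2.60. A positive ratio on all 3 arrays was found for 28 members, or 39.4%, against 22.9% of all genes. A negative ratio on all 3 arrays was found for 10, or 14.1%, against 22.5% of all genes, and the other 33 had arrays on both sides of 0.

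No member passed adjustment over all genes. By limma's moderated test of the mean against 0, 0 of 71 members had a Benjamini-Hochberg adjusted p under 0.05, and the same was true of all 14047 genes, which is 0%. At an unadjusted p under 0.05 there were 9 positive members, 12.7%, against 9.89% of all genes, and 6 negative members, 8.45%, against 9.69%. Both shares were near those of all genes. The counts moved with the arrays used. They were 3 positive and 2 negative without array 1, 7 and 4 without array 2 and 16 and 4 without array 3, where all genes gave 1156, 1453 and 2943 of either sign in place of 2750. The smallest adjusted p among the members was 0.149, for Uqcrb.

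**Figure D1:**
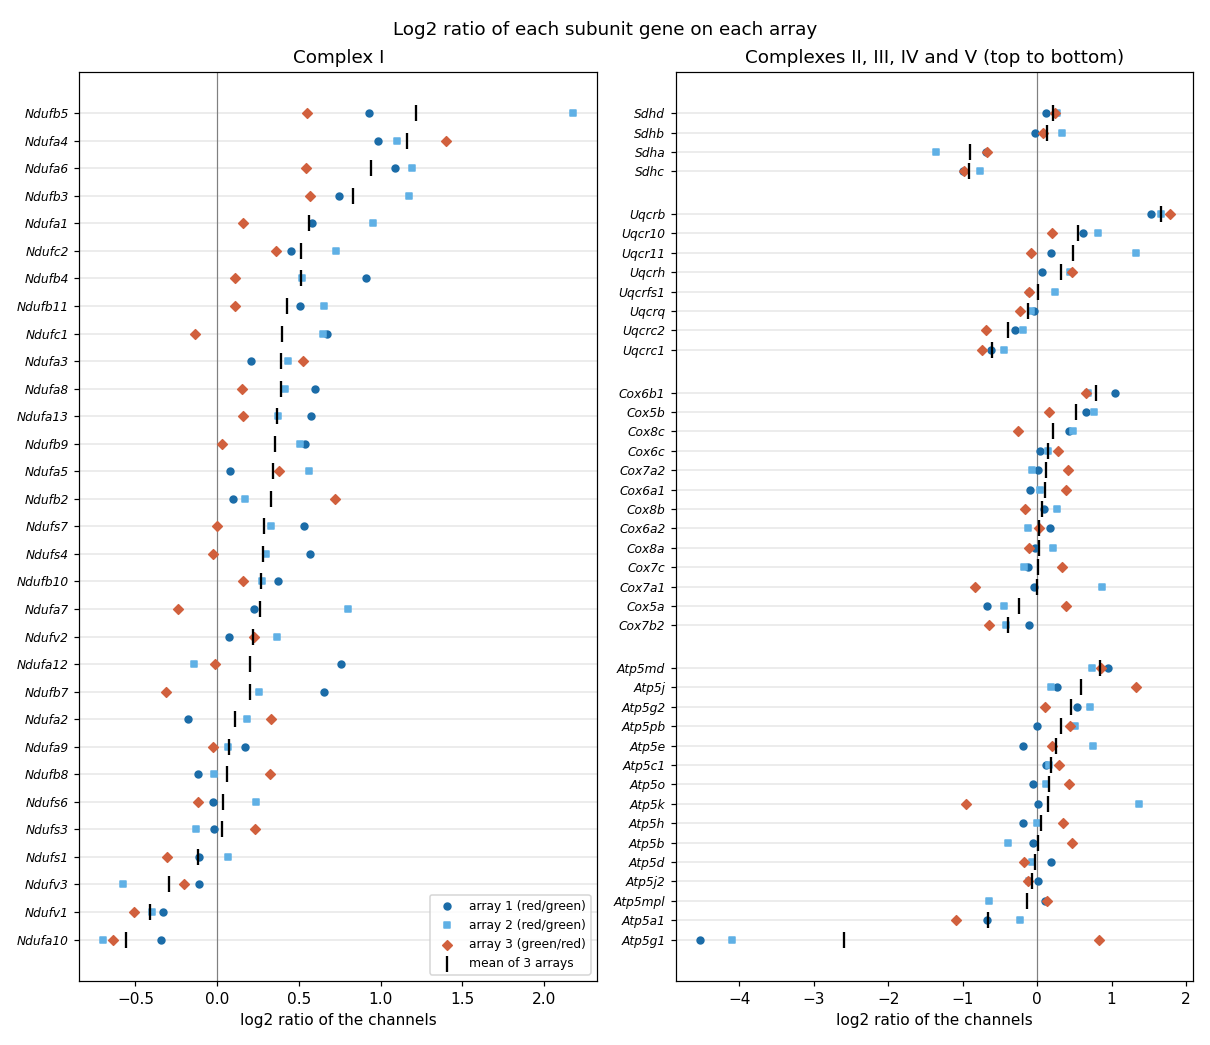
Log2 ratio (x axis) of each of the 71 subunit genes (y axis, sorted by mean within a complex) on array 1 (circles), array 2 (squares) and array 3 (diamonds), with a vertical tick at the mean. The 3 arrays lie close together for Uqcrb, Sdhc and Atp5md, while Atp5g1 has arrays 1 and 2 below -4 and array 3 at 0.83. The scales of the panels differ.

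Array by array, the members' median was 0.09, then 0.25, then 0.15. The median of all genes was 0.04 on arrays 1 and 2, while array 3 had -0.06. Relative to all genes the members' median therefore lay higher by 0.05, 0.21 and 0.21 on the 3 arrays. All 3 differences had the same sign, which gives an exact two-sided sign-flip p of 0.25, the smallest that 3 arrays allow. Array 1 thus showed a much smaller shift of the median than the other arrays. Positive members numbered 44, 48 and 43 of 71 on arrays 1 to 3. Of all 14047 genes 7445, 7409 and 6398 were positive on the same arrays.

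**Figure D2:**
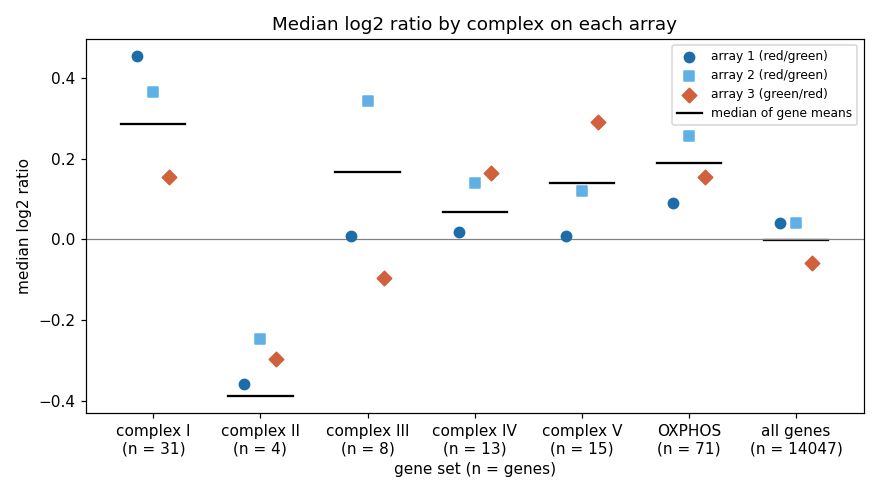
Median log2 ratio (y axis) of each complex, of all 71 subunit genes and of all genes (x axis) on array 1 (circles), array 2 (squares) and array 3 (diamonds), with a bar at the median of the gene means. Complex I is above 0 and complex II below 0 on every array, and complex III has array 3 on the other side of 0.

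Complex I, NADH dehydrogenase, was the complex with the largest positive median. Its 31 genes had a median of 0.29, and the arrays in turn gave 0.45, 0.37 and 0.15. Of these genes 27 had a positive mean, 87.1%, against 49.8% of all genes, and with array 3 turned 24 did, 77.4% against 54.7%. A positive ratio on every array was found for 16 genes, or 51.6% against 22.9% of all genes, and a negative one for 3, or 9.68% against 22.5%. At an unadjusted p under 0.05 there were 5 positive genes, 16.1% against 9.89% of all genes, and 2 negative genes, 6.45% against 9.69%. The median was 0.43 without array 3 and 0.23 with array 3 turned. Within the complex the lean lay with the accessory subunits. The 26 accessory genes had a median of 0.35, with 24 positive means, and the 5 core genes measured here had a median of 0.03, with 3 positive means. This split into roles was made after the values were seen and was not tested.

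Ndufb5, an accessory subunit of the membrane arm, had log2 ratios of 0.93, 2.18 and 0.55 on arrays 1 to 3. All arrays were positive, but array 2 stood far above the others, and the mean of 1.22 ± 0.85 (SD, n = 3) had an adjusted p of 0.223 by limma. Ndufa4 read 0.98, 1.10 and 1.40. Its arrays were close to each other, and the mean was 1.16 ± 0.21, a 2.23-fold ratio, with an adjusted p of 0.150. The protein was first assigned to complex I, as its symbol says, and is now placed in complex IV.

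Ndufa6, which joins the matrix arm together with the acyl carrier protein, read 1.09, 1.19 and 0.54, a mean of 0.94 ± 0.35. Ndufb3 of the membrane arm read 0.74, 1.17 and 0.57, a mean of 0.83 ± 0.31. Ndufc2 read 0.45, 0.73 and 0.36, a mean of 0.51 ± 0.19. In these 3 genes array 3 was the lowest of the arrays but stayed above 0.

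By subunit family, all 9 Ndufb genes had a positive mean, where 49.8% of all genes did, with a median of 0.36. A positive ratio on every array was found for 7 of them, 77.8% against 22.9% of all genes. With array 3 turned Ndufb2 and Ndufb8 both had -0.15. The family belongs to the membrane arm, and besides Ndufb5 and Ndufb3 it held Ndufb4 at 0.51 ± 0.40, Ndufb11 at 0.43 ± 0.28, Ndufb9 at 0.36 ± 0.29, Ndufb2 at 0.33 ± 0.34 and Ndufb10 at 0.27 ± 0.11. Ndufb7 at 0.20 ± 0.49 and Ndufb8 at 0.06 ± 0.23 had arrays on both sides of 0. Of the 12 Ndufa genes 11 had a positive mean, 91.7%, with a median of 0.35, and with array 3 turned Ndufa2 had -0.11. Ndufa1 had 0.56 ± 0.40, Ndufa3 0.39 ± 0.17, Ndufa8 0.39 ± 0.22, Ndufa13 0.37 ± 0.21 and Ndufa5 0.34 ± 0.24, and all of these were positive on every array. Ndufa7 at 0.26 ± 0.52, Ndufa12 at 0.20 ± 0.49, Ndufa2 at 0.11 ± 0.26 and Ndufa9 at 0.07 ± 0.10 had arrays on both sides of 0. Ndufc1 had 0.40 ± 0.46 with array 3 below 0.

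The core genes are those that carry the flavin and the iron-sulfur clusters or line the path of electrons. Ndufv1, which carries the flavin that takes electrons from NADH, read -0.33, -0.40 and -0.51. It was negative on every array, with a mean of -0.41 ± 0.09 and an adjusted p of 0.240. Ndufs1, the largest iron-sulfur subunit, read -0.11, 0.07 and -0.31, a mean of -0.12 ± 0.19. Of the other core genes, Ndufs3 had 0.03 ± 0.19 and Ndufs7 had 0.29 ± 0.27, each with arrays on both sides of 0, and Ndufv2 had 0.22 ± 0.15 with every array positive.

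Each of the 5 Ndufs genes had arrays on both sides of 0, among them also Ndufs4 at 0.28 ± 0.30 and Ndufs6 at 0.03 ± 0.18. The lowest gene of complex I was Ndufa10, an accessory subunit related to nucleoside kinases, at -0.34, -0.70 and -0.64. Its mean was -0.56 ± 0.19, and its adjusted p was 0.197. Ndufv3 was negative on every array too, at -0.30 ± 0.24.

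**Figure D3:**
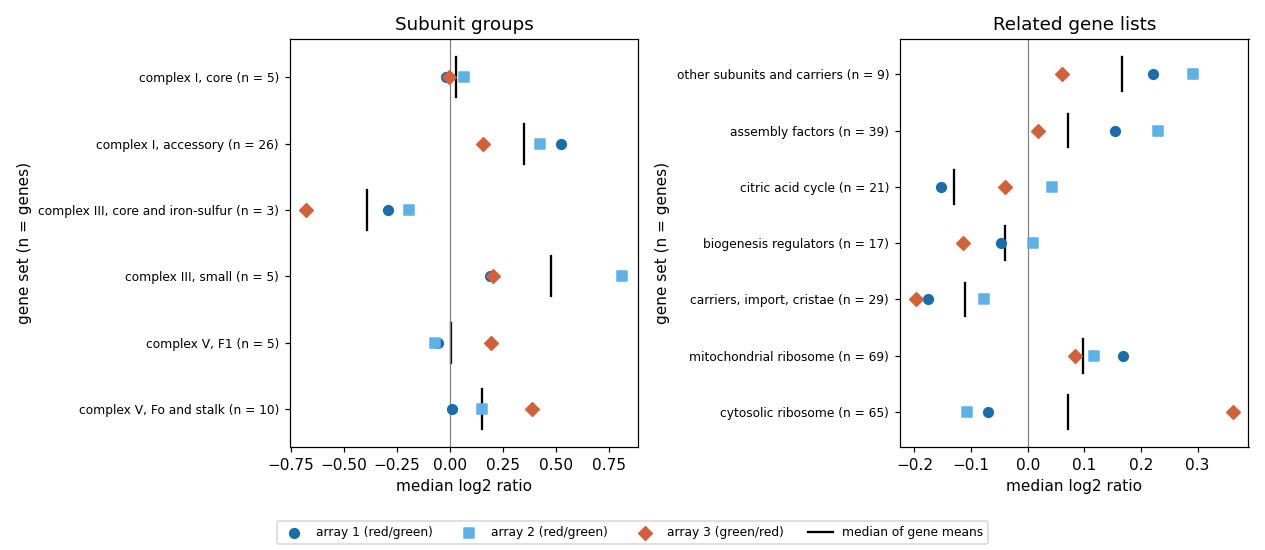
Median log2 ratio (x axis) of groups of subunits (left) and of related gene lists (right) on array 1 (circles), array 2 (squares) and array 3 (diamonds), with a bar at the median of the gene means. Accessory genes of complex I and small genes of complex III are above 0 on every array. The groups on the left were formed after the values were seen. Carrier, import and cristae genes are below 0 on every array, and cytosolic ribosomal genes are below 0 on arrays 1 and 2 and above 0 on array 3.

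Complex II, succinate dehydrogenase, was the complex with a negative median, -0.39 over its 4 genes. Array 1 gave -0.36, array 2 -0.25 and array 3 -0.30. The median lies between pairs of genes that differed. Sdha, the flavoprotein that oxidises succinate, read -0.69, -1.36 and -0.67, a mean of -0.91 ± 0.39. Sdhc, a membrane anchor, read -1.0, -0.76 and -0.99, a mean of -0.92 ± 0.13, which is a 1.89-fold ratio. Both genes were negative on every array, and their adjusted p by limma was 0.175 and 0.157.

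The other 2 genes of complex II lay near 0. Sdhb, the iron-sulfur subunit, read -0.02, 0.34 and 0.08, and Sdhd, the other membrane anchor, read 0.11, 0.27 and 0.24. Their means were 0.13 ± 0.19 and 0.21 ± 0.08. On every array both Sdha and Sdhc lay below both Sdhb and Sdhd. The 4 proteins form 1 enzyme. This difference between the pairs was not tested.

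Complex III, the cytochrome bc1 complex, held the member with the highest mean as deposited. Uqcrb, a small subunit known as the ubiquinone-binding protein, read 1.52, 1.67 and 1.78. The arrays differed little, and the mean of 1.66 ± 0.13, a 3.16-fold ratio, ranked 98 from the top among 14047 genes. With array 3 turned its mean was 0.47, the rank was 1672, and 6 members stood above it, with Ndufb5 the highest at 0.85. Uqcr10 was also positive on every array, at 0.61, 0.82 and 0.20, a mean of 0.54 ± 0.31. Uqcrh, the hinge protein near cytochrome c1, had 0.32 ± 0.23, and Uqcr11 had 0.48 ± 0.75, with array 2 at 1.33 and array 3 at -0.08. Uqcrq, also small, was slightly negative on every array, at -0.12 ± 0.10.

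The core proteins of complex III were on the negative side as deposited. Uqcrc1 and Uqcrc2, the core proteins related to mitochondrial processing peptidase, read -0.62, -0.44 and -0.74 for the first and -0.29, -0.19 and -0.68 for the second. Their means were -0.60 ± 0.15, with an adjusted p of 0.179 by limma, and -0.39 ± 0.26, with 0.320. Uqcrfs1, the Rieske iron-sulfur protein, had 0.01 ± 0.20 with arrays on both sides of 0. The split of this complex into large and small subunits was made after the values were seen and was not tested. The median of the complex was 0.17, and on array 3 it was -0.09. Without array 2 the median of complex III was -0.03, without array 1 it was 0.26, and with array 3 turned it was 0.07.

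Complex IV, cytochrome c oxidase, had a median close to 0. Its 13 genes had a median of 0.07, or 0.04 with array 3 turned. Of these 11 had a positive mean, 84.6%, against 49.8% of all genes, and with array 3 turned 8 did, 61.5% against 54.7%. Arrays on both sides of 0 were found for 9 of them, and for 7661 of all 14047 genes. Cox6b1, a subunit on the intermembrane side, read 1.04, 0.69 and 0.66, a mean of 0.80 ± 0.21 with an adjusted p of 0.162 by limma. Cox5b, which binds zinc, read 0.65, 0.77 and 0.16, a mean of 0.53 ± 0.32. At the low end Cox7b2 was negative on every array, at -0.39 ± 0.27. Cox5a had -0.24 ± 0.56, because arrays 1 and 2 read -0.68 and -0.45 and array 3 read 0.39.

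Several subunits of complex IV exist in tissue forms, and these differed by less than the spread between arrays. Cox6a1, the form of most tissues, had 0.11 ± 0.25, and Cox6a2, the heart and skeletal muscle form, had 0.03 ± 0.15. Cox7a2 had 0.12 ± 0.26, and its heart and muscle form Cox7a1 had 0.00 ± 0.85, with -0.04, 0.87 and -0.83 on the 3 arrays. Cox8a, Cox8b of heart and muscle and Cox8c of testis had 0.02 ± 0.17, 0.07 ± 0.22 and 0.22 ± 0.42. Within the arrays the difference between the common and the muscle form was 0.08 ± 0.32 for Cox6a, 0.12 ± 1.09 for Cox7a and -0.04 ± 0.08 for Cox8, each with arrays of both signs. Of the ubiquitous subunits Cox6c had 0.15 ± 0.12 and Cox7c 0.01 ± 0.28.

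Striated muscle genes lay on the other side of 0 from most subunit genes. In a list of 15 measured muscle and somite markers 14 had a negative mean, and the list's median was -0.62, with -0.66, -0.54 and -0.55 on the arrays. It held the skeletal actin gene Acta1 at -4.96 ± 0.92 and the somite gene Tcf15 at -1.78 ± 0.49. The muscle forms Cox6a2, Cox7a1 and Cox8b, at 0.03, 0.00 and 0.07, lay near 0. All 10 endothelial markers had a negative mean, with a median of -0.41 and Cldn5 at -1.12 ± 0.31 and Sox17 at -1.02 ± 0.31. Of 8 fetal liver and yolk sac markers 6 were negative, with a median of -1.06 and Afp at -1.68 ± 0.07 and Apoa1 at -1.58 ± 0.10. Alb at 0.36 ± 0.23 and Fgb at 2.14 ± 3.40 were positive on every array, and were added after their values were seen. These ratios have no zero level, so absence of a cell type cannot be read from them.

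Markers of the kidney's own cells were split. Of 7 renal stroma markers 6 were positive, with a median of 1.19 and Foxd1 at 1.56 ± 0.17 and Tcf21 at 1.47 ± 0.17. Pdgfra was negative on every array, at -0.42 ± 0.25. Of 12 mesenchyme markers 7 were positive, with a median of 0.12 and Crym at 1.91 ± 0.10 and Wt1 at 1.75 ± 0.04, while all arrays were below 0 for Hoxa11, at -0.36 ± 0.10, and for Osr1, at -0.36 ± 0.08, and Itga8, Pax2 and Hoxd11 had negative means with arrays on both sides of 0. Ureteric bud markers had 7 of 13 positive and a median of 0.07, with Calb1 at 1.16 ± 0.10 and Etv4 at 0.81 ± 0.18, while Krt8 at -0.59 ± 0.09 and Ret at -0.43 ± 0.11 were negative on every array. These 4 were the bud markers at an unadjusted p under 0.05. There were 2 of 13 on each side, 15.4%, where all genes gave 9.89% positive and 9.69% negative. The negative markers of the stroma, mesenchyme and bud lists were added after their values were seen. Erythroid markers, 3 of 10 positive, had a median of -0.03 and Klf1 at -1.10 ± 0.14 and Epb42 at 0.35 ± 0.49, and neural markers, 3 of 7 positive, had -0.12 and Dcx at 1.40 ± 0.29 and Tubb3 at -0.60 ± 0.04. The part of cell make-up in the ratios of the subunit genes was not tested.

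Complex V, ATP synthase, had a median of 0.14 over 15 genes. Of these 10 had a positive mean, 66.7%, against 49.8% of all genes, and with array 3 turned 8 did, 53.3% against 54.7%. Arrays on both sides of 0 were found for 9 of them, and for 7661 of all 14047 genes. The median was 0.06 without array 3 and 0.01 with array 3 turned. Atp5md, a small subunit that holds the enzyme's dimers together, read 0.96, 0.73 and 0.86. The arrays were close, and the mean of 0.85 ± 0.11 had an adjusted p of 0.157 by limma. Atp5j, coupling factor 6 of the stalk, was positive on every array at 0.26, 0.19 and 1.33, a mean of 0.59 ± 0.64 carried by array 3. Atp5pb, the b subunit of the stalk, had 0.32 ± 0.28.

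The genes of the catalytic head of complex V differed among themselves. Atp5a1, the alpha subunit, was negative on every array, at -0.67, -0.23 and -1.09, a mean of -0.66 ± 0.43 with an adjusted p of 0.241. Its partner Atp5b, the beta subunit that makes ATP, had -0.05, -0.39 and 0.47, a mean of 0.01 ± 0.44. Atp5c1, the central gamma subunit, had 0.19 ± 0.09 and was positive on every array, while Atp5d and Atp5e of the central stalk had -0.02 ± 0.19 and 0.25 ± 0.47. The 5 head genes had a median of 0.01, with 3 positive means, and the 10 genes of the membrane part and outer stalk 0.15, with 7. On arrays 1 to 3 the head genes had medians of -0.05, -0.07 and 0.19, and the other genes 0.01, 0.15 and 0.39. The ranges of these array medians overlapped. This split into roles was also made after the values were seen and was not tested.

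Atp5g1 and Atp5g2 encode the same c-ring protein with different import sequences, and they lay far apart. Atp5g1 read -4.53 and -4.09 on arrays 1 and 2 and 0.83 on array 3. The arrays of one dye order were thus near each other and opposite to the array of the other order, and the mean of -2.60 ± 2.98 had an adjusted p of 0.352 by limma. Atp5g2 read 0.53, 0.71 and 0.11, positive on every array, a mean of 0.45 ± 0.31. The lowest value of any other member on arrays 1 and 2 was -1.36, for Sdha. Without Atp5g1 the median of all members was 0.19 and that of complex V was 0.15. The Pearson correlation of arrays 1 and 3 over the members went from 0.24 to 0.58.

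The remaining genes of complex V were near 0 or varied between arrays. Atp5k, subunit e, read 0.01, 1.37 and -0.96, a mean of 0.14 ± 1.17, the widest spread among members after Atp5g1. Atp5o, which connects head and stalk, had 0.16 ± 0.25, Atp5h 0.05 ± 0.27, Atp5j2 -0.07 ± 0.08 and Atp5mpl -0.14 ± 0.44, all with arrays on both sides of 0.

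**Figure D4:**
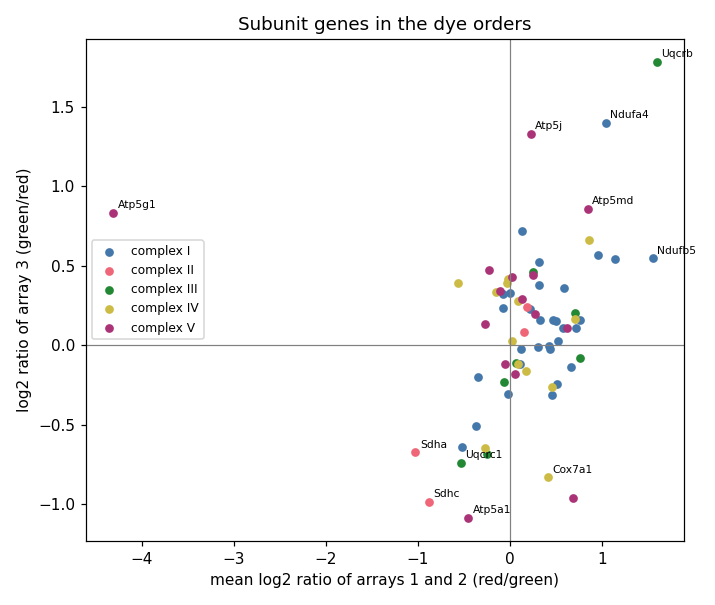
Log2 ratio of array 3 (y axis, dye order green/red) against the mean log2 ratio of arrays 1 and 2 (x axis, red/green) for the 71 subunit genes, coloured by complex. Uqcrb, Ndufa4 and Atp5md are high on both axes and Sdha, Sdhc, Uqcrc1 and Atp5a1 low on both, while Atp5g1 stands alone at the upper left.

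Arrays 1 and 2 were more alike over the members than either was to array 3. Ranked over the 71 genes, which share the arrays and are not independent points, arrays 1 and 2 had a Spearman correlation of 0.72, arrays 1 and 3 of 0.34 and arrays 2 and 3 of 0.30. Over all genes the same pairs had 0.50, 0.26 and 0.21. Arrays 1 and 2 agreed in sign for 55 members, 77.5%, against 71.1% of all genes. For 17 members, 23.9%, they shared a sign that array 3 did not have, and over all genes that share was 25.7%. Array 3 lay below the mean of the other arrays for 43 of the members. The median distance by which it lay below was 0.16 over the members and 0.10 over all genes. The correlations of array 3 with both others were above 0, but over all genes the Pearson values were only 0.06 and 0.02. Its values were used with the sign as deposited. The labels do not say whether that sign was adjusted for the swapped dyes, and the correlations do not settle it. As deposited, the renal stroma list had medians of 1.07, 1.52 and 0.97 on arrays 1 to 3. In the same order the muscle list had -0.66, -0.54 and -0.55, and the endothelial list -0.56, -0.43 and -0.42. The fetal liver and yolk sac list had -0.96, -0.57 and -1.28. The mesenchyme and bud lists had positive medians throughout, while the erythroid and neural lists had medians on both sides of 0. The sign of array 3 was not tested with these lists. With array 3 turned, the members' median was 0.09, the counts at an unadjusted p under 0.05 were 0 positive and 1 negative, and Atp5a1 had 0.06. The fall was not confined to the members, since the count over all 14047 genes also fell, from 2750 to below the 1156 found without array 1. The means moved toward 0 for Uqcrb at 0.47, Ndufa4 at 0.23, Sdhc at -0.26 and Sdha at -0.46. Their adjusted p by limma was from 0.944 to 0.966. In these genes all arrays had the same sign as deposited, so turning 1 array has to bring the mean nearer 0. The mean of Atp5g1, the member furthest from 0, went from -2.60 to -3.15.

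Genes that work with the subunits did not all lean the same way. Of 9 measured subunits and carriers whose symbols fall outside the pattern, 6 had a positive mean, with a median of 0.17, and Cox7a2l, a factor that joins complexes III and IV, had 0.71 ± 0.38 and the complex IV form Cox4i2 had 0.39 ± 0.10. At an unadjusted p under 0.05 there were 2 positive genes, 22.2%, and 0 negative genes, where all genes gave 9.89% and 9.69%. Of 39 assembly factors 22 were positive, with a median of 0.07, and 5 were positive and 2 negative at that limit, 12.8% and 5.13%, near the shares of all genes. Ndufaf2, an assembly factor of complex I, had 0.87 ± 0.05, and Lrpprc, which stabilises mitochondrial messenger RNA, had -0.85 ± 0.24.

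The citric acid cycle list, with pyruvate dehydrogenase and without the Sdh genes, had a negative median. Of its 21 genes 9 were positive and 12 negative, with a median of -0.13, and at an unadjusted p under 0.05 there were 2 positive and 6 negative genes, 9.52% and 28.6% against 9.89% and 9.69% of all genes. On array 2 the list's median was 0.04. Dlst, the succinyltransferase of the oxoglutarate dehydrogenase complex, had -0.84 ± 0.26, and Mpc1, part of the pyruvate carrier, had 0.77 ± 0.07. Among 29 carrier, import and cristae genes 20 were negative, with a median of -0.11, and 0 were positive and 5 negative, 17.2%, at that limit. Prohibitin, Phb, had -0.96 ± 0.45 and the import channel gene Tomm40 had -0.65 ± 0.20.

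Of 17 regulators of mitochondrial biogenesis 8 had a positive mean, with a median of -0.04. On every array 2 of them were positive, 11.8% against 22.9% of all genes, and 6 negative, 35.3% against 22.5%. At an unadjusted p under 0.05 there were 2 positive and 3 negative genes, 11.8% and 17.6% against 9.89% and 9.69% of all genes. Ssbp1, which binds single-stranded mitochondrial DNA, read 1.59, 2.90 and 1.49, a mean of 2.00 ± 0.79, and Pprc1, a coactivator of the PGC-1 family, had -0.84 ± 0.25. Of 69 mitochondrial ribosomal protein genes 42 were positive, with a median of 0.10, and 13 were positive and 6 negative at that limit, 18.8% and 8.70%, among them Mrpl18 at 0.89 ± 0.23 and Mrpl37 at -1.24 ± 0.23. Cytosolic ribosomal protein genes, 46 of 65 positive, had a median of 0.07 that joined -0.07 and -0.11 on arrays 1 and 2 with 0.36 on array 3. Of these 5 were positive, 7.69%, and 0 negative at that limit, and Rpl23 had 0.79 ± 0.27 and Rps20 0.62 ± 0.32. None of the genes in these lists passed adjustment over all genes by limma.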

How the data were processed

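Log2 ratios of the 2 channels of each array were used as the authors deposited them. Per the labels' descriptions, image analysis used Imagene 5.5, and normalization in R took a lowess curve per print tip and then a step between the arrays, with 20% of the data in each fit and control channel values under 10 set to 10. The lowest deposited log2 value equals a ratio of 0.01. No intensities were used here, so distance from background cannot be given, and precision is limited by having 3 arrays. Symbols came from the platform annotation. Probes of 1 symbol with values on all arrays (15340) were averaged per gene and array, and control spots were left out.

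For all 14047 genes a moderated two-sided test of the mean log2 ratio (limma 3.58.1, functions lmFit and eBayes, under R 4.3.3) was run, with Benjamini-Hochberg adjustment at 0.05, after a check on simulated data. Values after ± are SDs over arrays. Lists are described by counts and medians only. Proteins were not analysed here.

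Named genes are, per complex, the 2 highest and 2 lowest members, all of complex II, members at an unadjusted p under 0.05, paired tissue forms, and the 2 genes of smallest p in each related list. Other members are named as examples of their role and were chosen after their values were seen. Members, lists and rules were chosen with earlier results of these data known. Alternatives were centring, scaling, a dye term, array 3 turned, other variances, other handling of probes and missing values, and each array left out. Plots used Matplotlib 3.10.9.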

Additional observations from a re-analysis of the deposited data

How the results depend on the processing

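At an adjusted p under 0.05 the members' count stayed 0 in every alternative run, which says little about stability in a design of 3 arrays. The main counts at an unadjusted p, 9 positive and 6 negative, became 0 and 1 with array 3 turned, and 3 to 16 positive and 2 to 4 negative with an array left out. Among the runs with an array left out, the lowest counts were without array 1 and the highest positive count was without array 3. With array 3 turned the count over all 14047 genes fell too, from 2750 to below the 1156 found without array 1. The median of all members was 0.19, and 0.0861 with array 3 turned. That of complex II was -0.39, and -0.11 with array 3 turned and from -0.36 to -0.33 with an array left out. The median of complex III was -0.0256 without array 2, and 0.26 without array 1. That of complex I went from 0.29 to 0.43 without array 3, and that of complex V from 0.14 to 0.0559 without array 3, 0.0833 after scaling and 0.0078 with array 3 turned. With array 3 turned those of complexes III and IV were 0.0736 and 0.0357. Leaving out Atp5g1, chosen after seeing the data, changed no median by more than its spread between arrays. No paired analysis was possible because each array holds the whole comparison.

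Of the 71 members 40 kept their sign in every alternative. With array 3 turned, the sign changed, to the value given, for Atp5a1 0.0611, Atp5b -0.31, Atp5c1 -0.0057, Atp5d 0.0982, Atp5h -0.18, Atp5j -0.29, Atp5j2 0.0078, Atp5o -0.12, Cox6a1 -0.15, Cox6c -0.0364, Cox7a2 -0.16, Cox7b2 0.0357, Cox7c -0.21, Ndufa2 -0.11, Ndufb2 -0.15, Ndufb8 -0.15, Ndufs1 0.0876, Ndufs3 -0.13, Uqcrc2 0.0648 and Uqcrq 0.0315. With a dye term Atp5k had -0.14, Cox7a1 -0.21, Cox8a -0.0106, Ndufs6 -0.0036 and Uqcrfs1 -0.0202. After scaling Cox7a1 had -0.0383 and Uqcrfs1 -0.0027, and after median centring Cox7a1 had -0.0062. With an array left out the values ran from -0.22 to 0.21 for Atp5b, -0.13 to 0.0559 for Atp5d, -0.10 to 0.17 for Atp5h, -0.48 to 0.69 for Atp5k, -0.27 to 0.12 for Atp5mpl, -0.0297 to 0.21 for Cox6a1, -0.0458 to 0.0998 for Cox6a2, -0.43 to 0.42 for Cox7a1, -0.0231 to 0.22 for Cox7a2, -0.15 to 0.10 for Cox7c, -0.0724 to 0.0944 for Cox8a, -0.0354 to 0.18 for Cox8b, -0.0778 to 0.37 for Ndufa12, -0.0086 to 0.51 for Ndufa7, -0.0292 to 0.45 for Ndufb7, -0.0695 to 0.15 for Ndufb8, -0.0736 to 0.11 for Ndufs3, -0.0694 to 0.11 for Ndufs6 and -0.11 to 0.0690 for Uqcrfs1. The cause of these changes was not tested.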
